A study of Mus musculus with 8 samples.

Results

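Mouse embryonic fibroblasts without Ikbke were compared with wild-type (WT) fibroblasts after both had been transfected with B-DNA for 4 h. The comparison was chosen by genotype and treatment and uses 2 of the 8 arrays of the study, 1 Affymetrix array on each side. The array of Tbk1+/+ Ikbke-/- cells after B-DNA is set against that of Tbk1+/+ Ikbke+/+ cells after B-DNA. The mock-transfected arrays of the same genotypes and the mock and B-DNA arrays of Tbk1-/- Ikbke+/+ and Tbk1-/- Ikbke-/- cells are used as reference only. All cells are labelled as embryonic fibroblasts of mixed C57BL/6 and 129Ola background. Their number of embryos or cultures is not given in the sources used here. B-DNA is poly(dA-dT)-poly(dT-dA), a synthetic right-handed double helix. With 1 array on each side no ratio has a replicate check, so no p-value is given for one.

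Ikbke encodes IKK-epsilon, a protein kinase closely related to the product of Tbk1. Cytosolic DNA is sensed by cGAS, which signals through STING to these kinases, and they phosphorylate the transcription factor IRF3. IRF3 then turns on interferon beta, and interferon acts through JAK kinases, STAT2 and IRF9 on interferon-stimulated genes. A separate branch through NF-kB turns on chemokines and inflammatory cytokines. In fibroblasts Tbk1 is known as the main kinase of this pathway, and Ikbke as an inducible relative with a smaller part.

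Signals below are scaled so that the 2% trimmed mean of every array is 500. Ratios were taken on the log2 scale after raising every signal below 122 to that value, here called the floor, which is the 40th percentile over the arrays. A fold against a raised value is a lower bound and is written with "at least". For a difference to count, the arrays had to be 2-fold or more apart with the brighter one at 244 or above. The single probe set of Ikbke stayed below the floor on each of the 8 arrays (42.2 in stimulated WT and 22 in stimulated Ikbke-/- cells) and checks nothing. The brighter Tbk1 probe set read 989 in stimulated WT cells and 910.0 in stimulated Ikbke-/- cells. Xist read 3766 in stimulated WT and 161 in stimulated Ikbke-/- cells, and the Y-linked Eif2s3y read 3.6 and 236. Ikbke genotype and sex thus cannot be told apart, and only autosomal genes are compared between the stimulated arrays. The fibroblast genes Col1a2 (35035 in WT, 31637 in Ikbke-/-), Vim (25974 and 22116) and Fn1 (22263 and 21853) were high on both stimulated arrays.

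Leukocyte marker signals differed between the arrays. Of 23 measured macrophage and leukocyte markers, 10 were lower in stimulated Ikbke-/- cells and none was higher. Of all autosomal genes tested, 3.95% were lower and 3.12% higher. The summed signal of the 23 markers was 7518 in stimulated WT and 2315 in stimulated Ikbke-/- cells, and 23178 and 2024 on the mock arrays. It lay between 2252 and 2450 on the 4 Tbk1-/- arrays. C1qa, C1qb and C1qc, the complement genes of macrophages, read 303, 415 and 449.6 in stimulated WT cells and between 4.2 and 18.1 in stimulated Ikbke-/- cells. These values stand beside each result below on genes that were lower in stimulated Ikbke-/- cells, and their part in those results was not tested.

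Of 8529 autosomal genes that reached the floor on 1 or both stimulated arrays, 266 (3.12%) were higher and 337 (3.95%) lower in Ikbke-/- cells. A further 6653 genes (78.0%) lay within 1.5-fold. The median log2 ratio over all genes was -0.08 with an SD across genes of 0.58, and for the 1836 genes at 1000 or more on both arrays the SD was 0.46. Probe sets of a gene share the RNA and the arrays, so their agreement does not measure the spread between cultures or arrays. In 1761 genes with a second probe set at 244 or more on both arrays, the log2 ratios differed by a median of 0.25. The difference was less than 0.69 in 90% of these genes. Of 89 genes 2-fold or more apart by the brighter probe set, 86 had the same sign by the second. Of the 89, 45 were 2-fold or more apart in the same direction by both. The level set for the arrays matters for the direction of small differences. Without further scaling of the deposited values, 375 genes were higher and 228 lower, because all ratios move up by 0.17. Scaling to a common median gave 392 and 231, and quantile normalization gave 293 and 291.

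**Figure D1:**
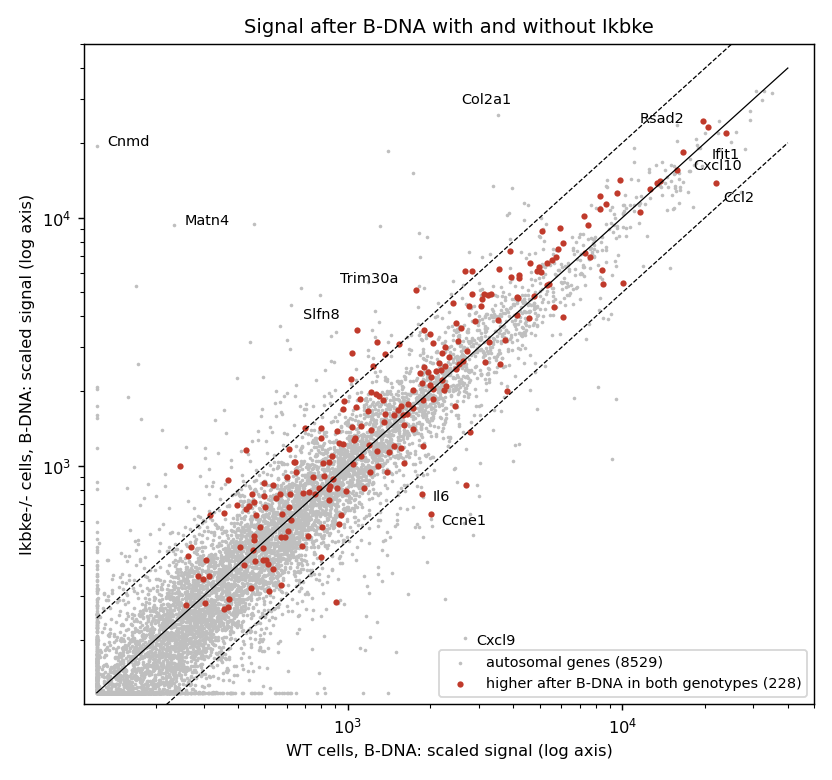
Scaled signal of 8529 autosomal genes after B-DNA in WT cells (x axis) and Ikbke-/- cells (y axis), both on log axes, 1 array each; values under the floor are drawn at it. Red points are the 228 genes that were 2-fold or more higher after B-DNA than after mock transfection in both genotypes, the solid line marks equal signal and the dashed lines 2-fold. Most red points lie near the line of equal signal, with Slfn8 and Trim30a above and Cxcl9 (grey, counted as induced in WT cells only), Ccne1 and Il6 below.

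Of the genes that B-DNA induced in both genotypes, 69.7% lay within 1.5-fold between the stimulated arrays, fewer than the 78.0% of all genes. A gene was called induced when its B-DNA signal was 2-fold or more above the mock signal of the same genotype and reached 244, which 312 of the 8529 genes (3.66%) did in WT and 336 (3.94%) in Ikbke-/- cells. Among the 228 genes induced in both, 159 lay within 1.5-fold, 15 (6.58%, against 3.12% of all genes) were higher and 5 (2.19%, against 3.95%) lower in Ikbke-/- cells. Their median log2 ratio was 0.20, above the -0.08 of all genes, and 152 of the 228 were above 0. Between 1.5-fold and 2-fold lay 38 genes above and 11 below. The 228 genes were chosen on these arrays, by a rule that treats the genotypes alike. The median stayed positive under each alternative setting, from 0.15 with the lower floor to 0.43 without further scaling, where the median of all genes was 0.08.

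In 160 of the 228 both mock signals were above the floor, and the median log2 ratio of Ikbke-/- over WT was -0.04 on the mock arrays and 0.20 on the B-DNA arrays. Within 1.5-fold lay 127 of the 160 on the mock arrays and 116 on the B-DNA arrays, and the SD across genes was 0.53 and 0.52. On the mock arrays 8 of the 160 were 2-fold or more lower in Ikbke-/- cells, and 5 of these 8 came within 1.5-fold after B-DNA. Among all tested genes with both mock signals above the floor, 47 of 209 did so. These genes were picked by a low ratio of single mock arrays. Rsad2, which makes the antiviral enzyme viperin, is among the 5. It read 400.0 in WT and 123 in Ikbke-/- cells on the mock arrays, and 20459.7 and 23165 after B-DNA. In Rsad2 the stimulated signals were thus close although the mock signals were not.

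**Figure D2:**
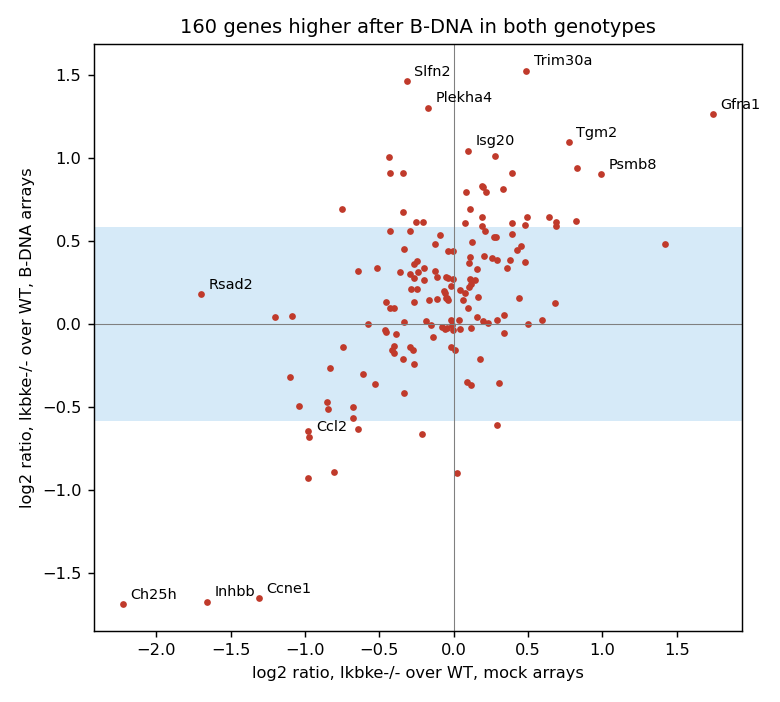
Log2 ratio of Ikbke-/- over WT on the mock arrays (x axis) and on the B-DNA arrays (y axis) for the 160 genes induced in both genotypes with both mock signals above the floor; each point is 1 gene and the blue band marks 1.5-fold. The points center slightly above 0 on the y axis, Rsad2 lies far left inside the band, and Ch25h, Inhbb and Ccne1 lie low on both axes.

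Among the sensors and adaptors upstream of the kinases, 13 of 24 listed genes were measured. Of these, 10 lay within 1.5-fold (76.9%, against 78.0% of all genes), and the median log2 ratio was 0.02. Ifih1, a sensor of double-stranded RNA, read 13655 in stimulated WT and 14101 in stimulated Ikbke-/- cells. Tlr3, which senses double-stranded RNA in endosomes, read 2185 and 2428, and Zbp1, a sensor of Z-form nucleic acid, read 988 and 793. Myd88, the adaptor of most Toll-like receptors, read 2415 and 4532, a log2 ratio of 0.91. All 4 were induced in both genotypes, and of these probe sets Myd88's alone lay outside 1.5-fold. Dimmer probe sets gave 0.71 for Tlr3 and -0.63 for Zbp1.

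Sting1, the adaptor between cGAS and the kinases, was the only 1 of the 13 counted as different, where 7.07% of all genes were. It read 422 after mock and 1199 after B-DNA in WT and 172 and 307 in Ikbke-/- cells, a log2 ratio of -1.97 between the stimulated arrays. It was already lower on the mock arrays, by 1.30 on the log2 scale. In Tbk1-/- cells it read 383 and 430, and in Tbk1-/- Ikbke-/- cells 258 and 144.

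None of 14 measured genes of interferons, receptors, Jak and Stat was counted, with a median log2 ratio of 0.03. Of all genes 7.07% were counted, and a list this short cannot tell none from that share. Within 1.5-fold lay 85.7% of the 14, against 78.0% of all genes. Ifnb1, the interferon beta gene, read 99.5 and 221 in WT and 55.8 and 194 in Ikbke-/- cells (mock, then B-DNA), so neither signal reached 244. Stat2 read 2007 in stimulated WT and 2282 in stimulated Ikbke-/- cells.

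Of 8 measured interferon regulatory factors none was counted, against 7.07% of all genes. Irf7, the factor that amplifies the interferon response, read 4150.2 in stimulated WT and 4045 in stimulated Ikbke-/- cells, and Irf3, which the kinases phosphorylate, read 1024 and 1068, though a dimmer Irf3 probe set gave -1.08. Irf1 read 5653 and 4379, a log2 ratio of -0.37. Irf9, the DNA-binding partner of STAT2, read 798 and 1422, a log2 ratio of 0.83. Irf9 was thus the only one of the 8 outside 1.5-fold, while its mock signals were 293 and 335.

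Of 12 measured brakes on interferon signalling none was counted either, against 7.07% of all genes. Only 58.3% of the 12 lay within 1.5-fold, against 78.0% of all genes. Socs1, which blocks JAK kinases, read 2198 in stimulated WT and 2216 in stimulated Ikbke-/- cells. Usp18, which removes Isg15 and blocks the interferon receptor, read 8266 and 12216, a log2 ratio of 0.56. Without further scaling, and with median scaling, 1 sensor, 1 interferon regulatory factor and 2 brakes were counted as higher.

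The antiviral effectors were about as close as all genes. All 36 measured genes of this list gave a median log2 ratio of 0.23, against -0.08 for all genes. Within 1.5-fold lay 29 (80.6%, against 78.0% of all genes). Of the 36, 2 were higher and none lower, against 3.12% and 3.95% of all genes. Ifit1, which binds foreign RNA, read 600.0 after mock and 23925 after B-DNA in WT and 454 and 21838 in Ikbke-/- cells. Ifit3 read 314 and 19679 in WT and 288 and 24582 in Ikbke-/- cells. Mx1, a GTPase that traps viral particles, read 7238 and 10191 after B-DNA, and was under the floor on both mock arrays. These 3 genes lay within 1.5-fold after B-DNA.

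Adar, which edits double-stranded RNA, read 2046 in stimulated WT and 1859.9 in stimulated Ikbke-/- cells. Oasl1, an oligoadenylate synthetase-like protein, read 8462 and 6126, a log2 ratio of -0.47. Samhd1, which depletes nucleotides, read 3905 and 7343 (0.91), but further probe sets gave -0.46 and -0.68 and the mean over probe sets 0.04. The lowest ratios on the list, -0.63 for Ifi27l2a and Oas3, belonged to genes under 244 on both stimulated arrays.

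The interferon-induced GTPases, the Isg15 system, the PARP family and MHC class I genes lay slightly higher in Ikbke-/- cells. Their medians were 0.51, 0.56, 0.33 and 0.41 over 9, 9, 9 and 16 measured genes, against -0.08 for all genes. Of these lists, 1, 1, 0 and 1 genes were higher and none was lower, against 3.12% and 3.95% of all genes. With quantile normalization the medians were 0.39, 0.52, 0.29 and 0.34, and with the mean over probe sets the Isg15 and MHC class I medians were 0.35 and 0.17.

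Among the GTPases, Gbp2 read 13360.4 in stimulated WT and 13755 in stimulated Ikbke-/- cells, and its second probe set read 3255 and 6251 (0.94). Igtp read 9830.4 and 14114. Gbp6, under the floor on both mock arrays, read 1241 and 2518, a log2 ratio of 1.02. Tap1, a subunit of the peptide transporter, read 4199 and 5701 (0.44), and a dimmer probe set gave -0.30. Psmb8, a subunit of the immunoproteasome, read 1892 and 3537 (0.90), and Psmb9, another, read 1032 and 2248 (1.12). Psmb10, the third, went the other way with 3724 and 3222 (-0.21). The 3 inducible subunits thus did not share a ratio.

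**Figure D3:**
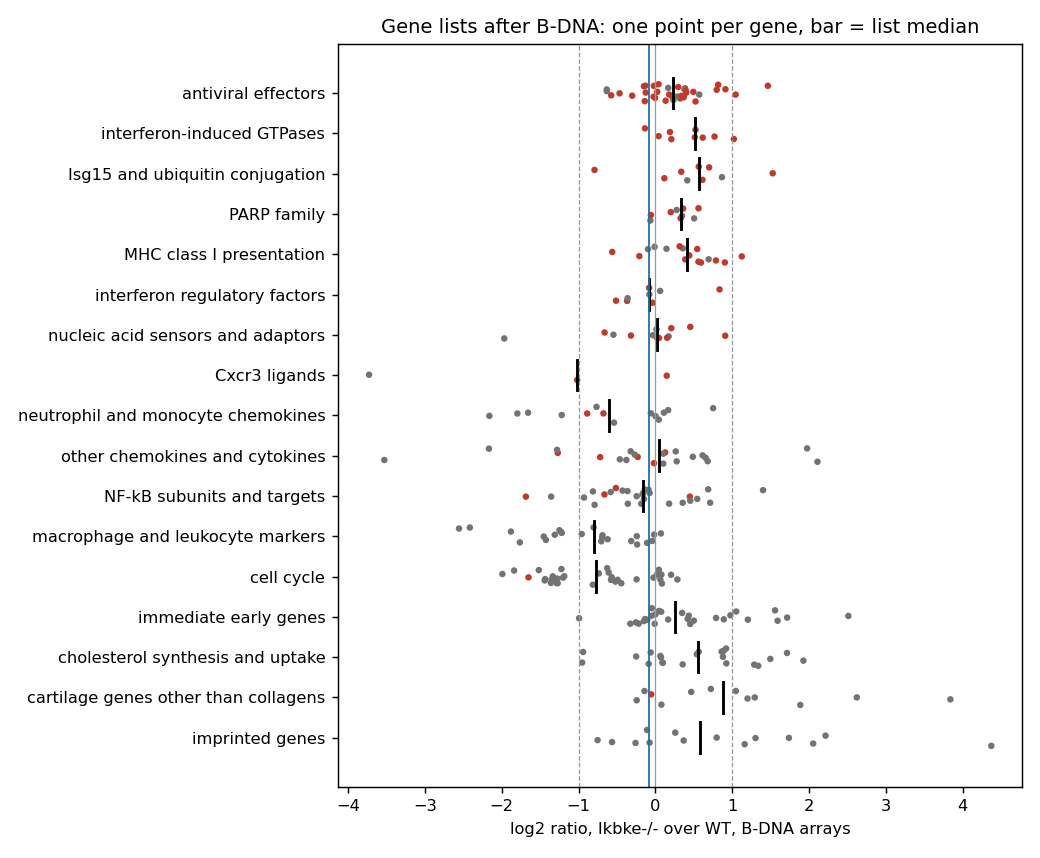
Log2 ratio of Ikbke-/- over WT on the B-DNA arrays for the measured genes of 17 lists; each point is 1 gene, red where it was induced in both genotypes, black bars are list medians and the blue line is the median of all genes at -0.08. The interferon lists sit at or slightly right of 0, the chemokine, macrophage and cell cycle lists reach far to the left, and the cartilage and imprinted genes reach far to the right.

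The 15 induced genes with a higher level in Ikbke-/- cells were led by Shfl, Slfn8, Trim30a, Slfn2, Crybg1, Plekha4, Gfra1 and Mndal. Slfn8, a Schlafen family gene, read 17.1 after mock and 1083 after B-DNA in WT and 10.7 and 3532 in Ikbke-/- cells, a log2 ratio of 1.70 between the stimulated arrays. Trim30a, a TRIM protein induced by interferon, read 193 and 1767 in WT and 271 and 5088 in Ikbke-/- cells (1.53). Slfn2, a Schlafen gene known for keeping T cells quiescent, read 470 and 1035 in WT and 378 and 2854 in Ikbke-/- cells (1.46). In these 3 genes the mock signals were close or under the floor, and the stimulated signals were apart.

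Mndal, a member of the Ifi200 family of DNA-binding proteins, read 38.9 and 2680 in WT and 61.9 and 6109 in Ikbke-/- cells (1.19). Shfl, which blocks viral translation frameshifting, read 106 and 246 in WT and 221 and 1000.3 in Ikbke-/- cells (2.03). Isg20, an exonuclease, read 251 and 1368 in WT and 269 and 2820.4 in Ikbke-/- cells (1.04). Plekha4 read 296 and 1274 in WT and 263 and 3146 in Ikbke-/- cells (1.30), and further Plekha4 probe sets gave 0.59 and 2.17. Crybg1 read 11.6 and 428 in WT and 182 and 1154 in Ikbke-/- cells (1.43). Of the 15 genes only Gfra1, a receptor of glial cell line-derived factors, was also counted as higher on the mock arrays. Of the others, 5 had both mock signals below the floor, where no difference could be counted. Nor could one be counted for genes under 244 on both mock arrays, among them Shfl and Crybg1. Their mock log2 ratios were 0.85 and 0.57.

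None of the 15 passed the induction rule in Tbk1-/- cells or in double mutant cells. The same held for the 5 induced genes that were lower in Ikbke-/- cells, so this was not particular to the 15. The share of all genes that passed the rule in those cells is not given here. Slfn8, Mndal and Gbp6 lay under the floor on all 4 Tbk1-/- arrays, and Trim30a read between 134 and 227 there. Slfn8, Trim30a and Mndal belong to families of near-identical genes, so their probe sets may also detect relatives. The second probe sets of Trim30a (0.94) and Mndal (1.34) also gave ratios above 0. With quantile normalization 9 of the induced genes were higher in place of 15, and with median scaling 22.

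Promoter sequences from RefSeq (GRCm38.p6, from 250 bases before to 50 after the start site, 1 window per gene) were searched on both strands for 3 motifs. The pattern like the interferon-stimulated response element was TTTC, 2 free bases and TTTC. The pattern like the STAT site was TTC, 3 free bases and GAA, and the pattern like the NF-kB site was GGG, 2 free bases and TTTCC. Sequences are shown for 3 induced genes that were higher without Ikbke, for the level Cxcl10 and for Cxcl9 and Cxcl1, which were lower. Capitals mark motif matches.
Slfn8, chr11:83020761-83021060, minus strand: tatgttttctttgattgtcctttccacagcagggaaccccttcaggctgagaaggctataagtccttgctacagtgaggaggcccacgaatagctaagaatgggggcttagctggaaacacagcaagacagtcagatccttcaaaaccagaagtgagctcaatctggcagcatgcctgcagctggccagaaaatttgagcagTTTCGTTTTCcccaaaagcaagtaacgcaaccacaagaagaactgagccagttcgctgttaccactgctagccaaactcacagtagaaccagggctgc
Trim30a, chr7:104465144-104465443, minus strand: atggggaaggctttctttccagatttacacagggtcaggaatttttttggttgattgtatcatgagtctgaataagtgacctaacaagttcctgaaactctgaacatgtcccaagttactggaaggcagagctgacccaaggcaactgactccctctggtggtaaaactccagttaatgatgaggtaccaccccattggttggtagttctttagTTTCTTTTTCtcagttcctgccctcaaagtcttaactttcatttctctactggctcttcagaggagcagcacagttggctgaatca
Mndal, chr1:173880138-173880437, minus strand: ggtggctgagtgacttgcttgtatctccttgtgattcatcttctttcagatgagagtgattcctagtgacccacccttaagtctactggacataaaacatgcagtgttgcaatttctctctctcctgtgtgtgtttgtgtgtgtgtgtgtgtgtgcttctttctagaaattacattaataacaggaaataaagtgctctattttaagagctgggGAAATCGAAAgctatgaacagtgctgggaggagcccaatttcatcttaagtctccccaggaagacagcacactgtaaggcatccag
Cxcl10, chr5:92348840-92349139, minus strand: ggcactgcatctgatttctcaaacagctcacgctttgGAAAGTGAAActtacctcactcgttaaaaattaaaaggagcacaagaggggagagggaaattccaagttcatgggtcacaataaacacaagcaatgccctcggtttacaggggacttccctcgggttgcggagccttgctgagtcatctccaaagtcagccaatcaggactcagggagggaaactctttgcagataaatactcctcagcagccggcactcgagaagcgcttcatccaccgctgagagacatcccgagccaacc
Cxcl9, chr5:92328030-92328329, minus strand: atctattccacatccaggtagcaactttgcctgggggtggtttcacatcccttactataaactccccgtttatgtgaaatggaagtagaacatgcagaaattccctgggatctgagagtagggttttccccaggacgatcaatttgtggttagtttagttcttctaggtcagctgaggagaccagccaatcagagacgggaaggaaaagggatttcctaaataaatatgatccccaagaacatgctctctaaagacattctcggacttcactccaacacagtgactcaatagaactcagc
Cxcl1, chr5:90890995-90891294, plus strand: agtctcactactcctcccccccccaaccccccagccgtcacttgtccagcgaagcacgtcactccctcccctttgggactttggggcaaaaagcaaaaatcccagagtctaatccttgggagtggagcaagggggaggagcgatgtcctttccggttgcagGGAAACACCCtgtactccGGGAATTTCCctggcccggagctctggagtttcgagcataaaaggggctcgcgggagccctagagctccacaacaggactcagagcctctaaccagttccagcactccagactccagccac
The response element pattern stands once in the windows of Slfn8, Trim30a, Mndal and Cxcl10, Cxcl1 holds 2 matches to the NF-kB pattern, and Cxcl9 holds none of the 3 patterns in this window.

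The response element pattern was found in 42 of 172 promoters of genes induced in both genotypes (24.4%), against 3.22% of the 6889 tested genes with a promoter in the table. Among induced genes it stood in 7 of 11 promoters of those higher without Ikbke, in 25 of 121 of those within 1.5-fold and in 1 of 4 of those lower. It was in none of 13 promoters of genes induced in WT cells only that were lower without Ikbke. The NF-kB pattern stood in 1.74% and the STAT pattern in 6.90% of the tested genes' promoters. A match of letters is a description of the window and not of binding, and the small groups were picked on the ratios they describe.

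Cxcl9 had the lowest ratio of the genes that B-DNA induced in either genotype, followed by Sting1. The Cxcr3 ligands attract T cells, and all 3 are interferon-inducible. Cxcl9 read 7.4 after mock and 2682 after B-DNA in WT and 17.9 and 203 in Ikbke-/- cells, a log2 ratio of -3.72 between the stimulated arrays. Cxcl11 read 65.3 and 2785 in WT and 19 and 1375 in Ikbke-/- cells (-1.02). Cxcl10 read 440 and 16599.8 in WT and 392 and 18387 in Ikbke-/- cells (0.15). The mock signals were thus alike or under the floor in all 3, and Cxcl9 and Cxcl11 were counted as lower after B-DNA. Cxcl11 missed the 2-fold rule without further scaling (-0.84) and with median scaling (-0.84).

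Of 14 measured chemokines that act on neutrophils and monocytes, 4 were lower and none was higher, against 3.95% and 3.12% of all genes, and the median log2 ratio was -0.61. Cxcl1, a neutrophil attractant, read 370 and 967 in WT and 485 and 278 in Ikbke-/- cells (-1.80). Its signal was higher after B-DNA than after mock in WT cells and lower in Ikbke-/- cells. In Tbk1-/- Ikbke-/- cells it read 131 and 1078. Ccl8, a monocyte attractant, read 240.1 and 836 in WT and 195 and 265 in Ikbke-/- cells (-1.66). Ccl12, another, was at least 2.33-fold lower, with 284 in stimulated WT cells.

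Ccl7 and Ccl2, the main monocyte attractants of fibroblasts, were induced in both genotypes. Ccl7 read 2408 and 10052 in WT and 1377 and 5433 in Ikbke-/- cells, a log2 ratio of -0.89. Ccl2 read 9264 and 21927 in WT and 4724 and 13721 in Ikbke-/- cells (-0.68). Both were lower in Ikbke-/- cells before and after B-DNA, by amounts below the 2-fold rule. Cxcl5, which attracts neutrophils and was not induced by the rule, read 546 in stimulated WT cells and lay under the floor in stimulated Ikbke-/- cells.

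Of 22 other measured chemokines and cytokines, 2 were higher, 4 lower and 12 within 1.5-fold, against 3.12%, 3.95% and 78.0% of all genes. Ccl5, which attracts T cells and monocytes, read 15819 in stimulated WT and 15614 in stimulated Ikbke-/- cells. Il6 read 345 and 1861 in WT and 94.6 and 772 in Ikbke-/- cells (-1.27), so that it was induced in both and lower in Ikbke-/- cells at each treatment. Lif, of the same cytokine family, was not induced and read 2647 and 590 after B-DNA (-2.17). Ccl20 read 1408 in stimulated WT cells and lay under the floor in Ikbke-/- cells. Tnfsf10, the death ligand TRAIL, read 125 in stimulated WT and 490 in stimulated Ikbke-/- cells (1.97), and Cxcl12, which was not induced, read 1943 and 8375 (2.11).

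**Figure D4:**
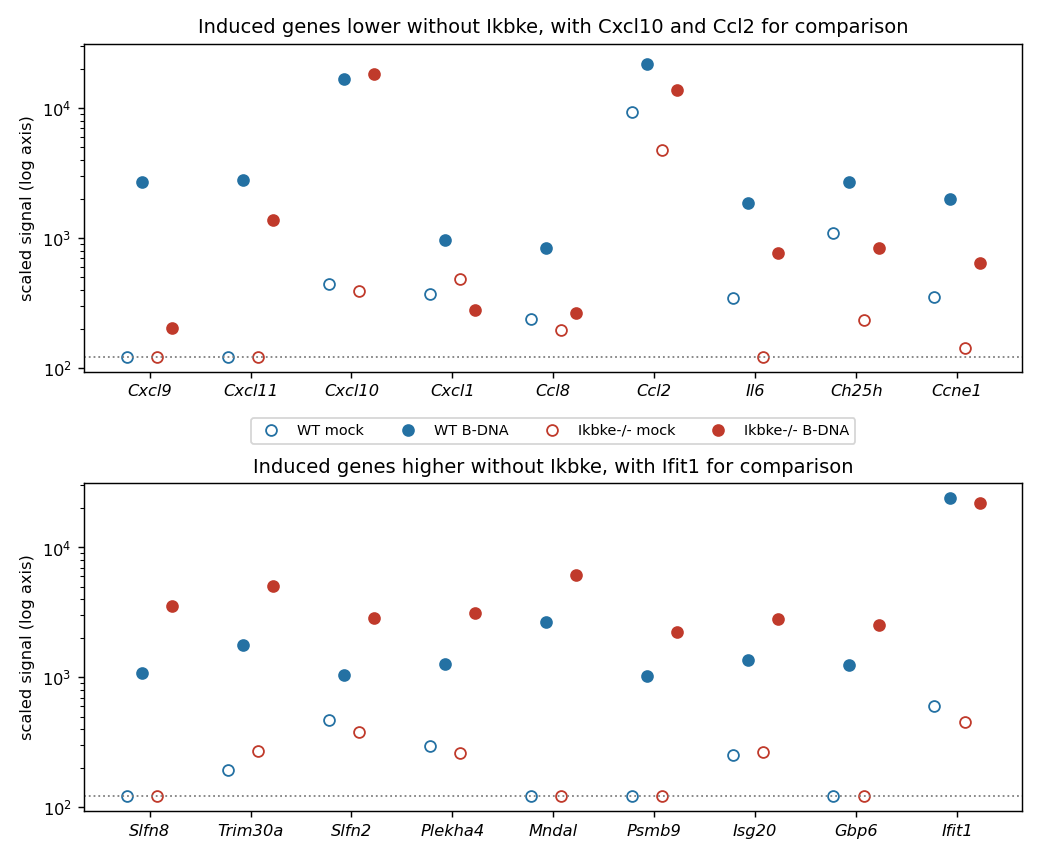
Scaled signal (log axis) of induced genes on 4 arrays, with open circles for mock, filled circles for B-DNA, blue for WT and red for Ikbke-/- cells; the dotted line is the floor of 122, at which lower values are drawn. In the upper panel Cxcl9 and Cxcl11 share a mock level at the floor and differ after B-DNA, whereas Il6, Ch25h and Ccne1 differ at both treatments and Cxcl10 at neither. In the lower panel the filled red circles stand above the filled blue ones for every gene but Ifit1.

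The other induced genes that were lower in Ikbke-/- cells were Ch25h, Inhbb and Ccne1. Ch25h, which makes the antiviral oxysterol 25-hydroxycholesterol, read 1098 and 2686 in WT and 236 and 836 in Ikbke-/- cells (-1.68). Ccne1, which encodes cyclin E, read 353 and 2003 in WT and 143 and 638 in Ikbke-/- cells (-1.65). Inhbb, an activin subunit, read 409 and 905 in WT and 130 and 284 in Ikbke-/- cells (-1.67), and its further probe set gave -0.83. With Il6, these were 4 of the 5 induced genes lower without Ikbke, and all 4 were counted as lower on the mock arrays as well. Cxcl11, the fifth, was under the floor on both mock arrays.

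Genes induced by the rule in 1 genotype only were, by that choice, apart. Of 84 genes induced in WT cells only, 21 (25%, against 3.95% of all genes) were lower and 2 higher on the Ikbke-/- B-DNA array. Of 108 induced in Ikbke-/- cells only, 22 (20.4%, against 3.12% of all genes) were higher and 3 lower. Within 1.5-fold lay 43 of the 84 (51.2%) and 62 of the 108 (57.4%), fewer than the 78.0% of all genes. Those 43 and 62 genes passed the rule in 1 genotype through the mock signal or a small margin. Trim30d (217 and 828 after B-DNA), a relative of Trim30a, and Ackr3 (568 and 1805), a scavenging receptor for Cxcl12, were among the 22. Both were named after their values were seen, as were Zbp1, Socs1, Samhd1, Ifi27l2a, Oas3, Psmb10 and Fas.

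Of 27 measured NF-kB subunits and targets 18 (66.7%, against 78.0% of all genes) were within 1.5-fold. In this list 1 gene was higher and 2 were lower, against 3.12% and 3.95% of all genes, with a median of -0.17 that was about 0 with median scaling and without further scaling. Nfkbia, the inhibitor that NF-kB itself induces, read 12591 in stimulated WT and 11949 in stimulated Ikbke-/- cells. Vcam1, an adhesion molecule, read 8523 and 5384 (-0.66). Icam1, another, read 337 after mock and 592 after B-DNA in WT and 987 and 953 in Ikbke-/- cells (0.69). The 2 adhesion molecules thus had ratios of opposite sign. Of 22 measured apoptosis genes none was counted, against 7.07% of all genes, or 1 without further scaling and with median scaling. Fas, a death receptor, read 1049 and 1015.

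Of the 266 higher genes 227 (85.3%), and of the 337 lower genes 308 (91.4%), did not pass the induction rule in either genotype, against 95.1% of all genes. Of these, 130 of 227 and 159 of 308 were counted in the same direction on the mock arrays, where 2.42% of the 8529 genes were higher and 3.39% lower. The mock arrays are not part of the stimulated comparison, but the induction rule uses them. Leaving out induced genes therefore favours like ratios at both treatments. Without that choice, 134 of the 266 higher and 169 of the 337 lower genes were counted in the same direction on the mock arrays.

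Several cartilage genes were among the highest ratios. Cnmd, which makes chondromodulin of cartilage, read 117 in stimulated WT and 19434 in stimulated Ikbke-/- cells, at least 159-fold more. Col2a1, the main cartilage collagen, read 3516 and 25950.4 (2.88), Col9a1 read 170 and 5292 (4.96, and 2.96 by its second probe set) and Matn4, a matrilin of cartilage, read 233 and 9343 (5.33). Acan, the large cartilage proteoglycan, read 795 and 4887 (2.62), and Sox9, the transcription factor of chondrocytes, read 277 and 678 (1.29). Col10a1, the collagen of hypertrophic chondrocytes, went the other way with 619 and 61.1, at least 5.07-fold lower. Of 12 measured cartilage genes other than collagens, 6 were higher and none lower, against 3.12% and 3.95% of all genes, with a median of 0.88 after B-DNA and 0.83 on the mock arrays.

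Other matrix and growth genes went in both directions. Of 25 measured collagens 6 were higher and 5 lower, against 3.12% and 3.95% of all genes. Among the lower were Col5a3 (3016 and 759) and Col8a1 (6645 and 1872). Decorin (Dcn, 674 and 5185), a small proteoglycan, was higher, whereas the elastic fiber genes Eln (2949 and 835), Fbln2 (9514 and 1859.9) and Mfap5 (2260 and 291) were lower. Of 14 measured imprinted genes 6 were higher and none lower, against the same shares of all genes. Dlk1, a fetal growth regulator, read 455 and 9411 (4.37), and Mest read 3956 and 13182 (1.74). The median of the imprinted genes was 0.58 and turned to 0 with the mean over probe sets. Further probe sets gave 0.62 for Peg3, which read 257 and 1193 (2.21), and -0.46 for Meg3, which read 4545 and 11209 (1.30).

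Penk, the precursor of enkephalins, read 1407 in stimulated WT and 18500.3 in stimulated Ikbke-/- cells (3.72). Ptn, the growth factor pleiotrophin, read 1735 and 15165 (3.13), and Apoe, the lipid carrier, read 159 and 1891 (3.57). Downward, Igfbp7, which binds insulin-like growth factors, read 9184 and 1067 (-3.11, and -1.04 with the mean over its probe sets), and Stmn2, a tubulin-binding protein of neurons, read 1497 and 178 (-3.07). Each of the 5 had a ratio of the same sign on the mock arrays.

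Cell cycle genes were lower as a group. Of 34 measured members 16 were lower and none higher, against 3.95% and 3.12% of all genes, and the median log2 ratio was -0.77 after B-DNA and -0.62 on the mock arrays. Mki67, the proliferation marker, read 680.3 and 821 in WT and 339 and 207 in Ikbke-/- cells (-1.99). Rrm2, which supplies nucleotides for DNA synthesis, read 1173 and 328 after B-DNA (-1.84). Cdk1, the mitotic kinase, read 1386 and 544 (-1.35), Top2a, which untangles DNA, 1347 and 497 (-1.44, and -0.72 with the mean over its probe sets), and the replication helicase gene Mcm7 1366 and 506 (-1.43). Ccnd1 (4645 and 5662) and Cdkn1a (7905 and 8157), which act in G1 and as a brake, lay within 1.5-fold, though a further Ccnd1 probe set gave 1.02. Of the 16 lower genes Ccne1 alone was induced by B-DNA in both genotypes, and further probe sets of Mcm2 (-0.34) and Mcm7 (-0.60) had smaller ratios.

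Several immediate early genes, the first to be transcribed after a stimulus, and several cholesterol genes were higher. Of 28 measured immediate early genes 6 were higher and none lower, against 3.12% and 3.95% of all genes, with a median of 0.26. Arc read 397 and 2262 after B-DNA (2.51), Atf3, a stress factor, 647 and 2121 (1.71), Fosb 224 and 675 (1.59), Dusp1, a phosphatase of MAP kinases, 825 and 2426 (1.56), and Fos 695 and 1600.3 (1.20). Of 22 measured cholesterol genes 5 were higher and none lower, against the same 3.12% and 3.95% of all genes. Without further scaling and with median scaling 10 were higher. The median of this list was 0.55 after B-DNA and 0.82 on the mock arrays. Hmgcs1, an early enzyme of the pathway, read 4422 and 1835 in WT and 12083 and 6969 in Ikbke-/- cells (1.93), and Msmo1, a late one, read 3122 and 599 in WT and 6651 and 1964 in Ikbke-/- cells (1.71). Both were lower after B-DNA than after mock in each genotype and higher in Ikbke-/- cells at each treatment.

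The other 6 arrays allow a look at Ikbke that shares no array with the stimulated pair. They form 3 matched pairs: Ikbke-/- against WT mock, and Tbk1-/- Ikbke-/- against Tbk1-/- after mock and after B-DNA. Sex follows Ikbke genotype in these pairs too. Xist read 3002 in WT and 138 in Ikbke-/- cells after mock. It read 2950 and 3149 (mock, then B-DNA) in Tbk1-/- and 209 and 180.5 in Tbk1-/- Ikbke-/- cells. Eif2s3y read 2 and 2.2 in Tbk1-/- and 153 and 209 in Tbk1-/- Ikbke-/- cells. Ikbke and sex therefore cannot be told apart in any pair. Whether the mock and B-DNA arrays of a genotype share a cell preparation is not given in the sources used here. Limma called no gene as different over these 3 pairs after Benjamini-Hochberg adjustment over 9340 genes (0.0% higher, 0.0% lower). At an unadjusted p under 0.05 by limma stood 1065 genes, and the lowest adjusted p by limma was 0.104. This fit was not limited to autosomal genes, so sex-linked genes are among the 9340. With all 8 arrays, which include the stimulated pair, limma called 8 higher and 5 lower genes. Without the mock pair that has Tbk1, which leaves only the Tbk1-/- genotypes, it called 1510 higher and 1055 lower. That fit has 1 residual degree of freedom and takes mock and B-DNA arrays of the same genotypes as replicates. Its calls cannot tell Ikbke from any other lasting difference between those cells. Of the 266 genes higher in stimulated Ikbke-/- cells, 257 were in the fit, and 85 of these (33.1%) had a ratio above 0 in all 3 pairs, against 16.3% of all fitted genes. Of the 337 lower genes, 331 were in it and 95 (28.7%) were below 0 in all 3, against 13.4%. The mock pair with Tbk1 is 1 of the 3 and holds the same genotypes as the stimulated pair. In it, 134 of the 266 higher and 169 of the 337 lower genes were counted in the same direction. The shares over the 3 pairs therefore do not stand apart from that pair.

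Of the counted genes, more went the other way than the same way in the Tbk1-/- pairs. Of the 266 higher genes 46 were also higher and 55 were lower in the stimulated double mutant against stimulated Tbk1-/- cells, and of the 337 lower genes 37 were also lower and 61 higher, where 7.28% of all genes were higher and 6.47% lower in that pair. After mock, 47 of the 266 were also higher and 63 lower, and 30 of the 337 also lower and 69 higher, where 8.71% of all genes were higher and 7.27% lower. The 16 lower cell cycle genes had a median of -1.34 after B-DNA and -1.14 after mock with Tbk1, and of 1.15 and 0.81 without it, where 14 of the 16 were above 0 at each treatment. Mki67 read 491 in stimulated Tbk1-/- cells and 1535 in stimulated double mutant cells. The 6 higher immediate early genes had a median of 1.57 with Tbk1 and -2.20 without it after B-DNA, and the 5 higher cholesterol genes 1.49 and -1.19. Col2a1 read 5232 in stimulated Tbk1-/- and 1047 in stimulated double mutant cells. Other lists kept their direction. The 6 higher imprinted genes had a median of 1.28 and the 6 higher matrix genes other than collagens a median of 2.12 in the stimulated pair without Tbk1, with 5 of 6 above 0 in each. Dcn read 588 in stimulated Tbk1-/- and 12713 in stimulated double mutant cells. The difference between the pairs was not tested.

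**Figure D5:**
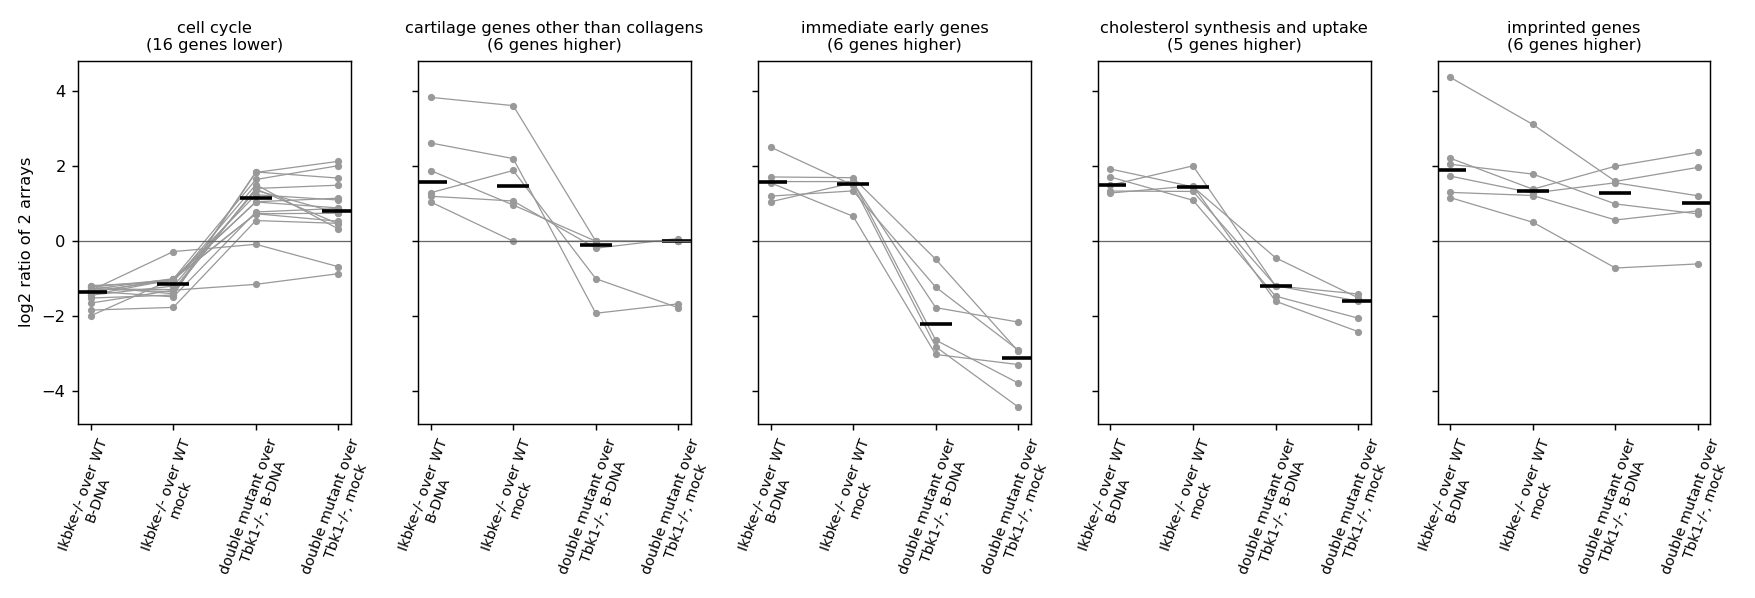
Log2 ratio of Ikbke-null over Ikbke+/+ cells in 4 pairs of arrays for the list members counted as different after B-DNA in cells with Tbk1; each grey line is 1 gene and black bars are medians. In the cells with Tbk1 the ratios are alike after B-DNA and after mock, and in the Tbk1-/- pairs most cell cycle genes lie above 0 and the immediate early and cholesterol genes below 0, whereas 5 of 6 imprinted genes stay above 0.

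By position, the genes nearest to Ikbke on chromosome 1 held 5 counted genes among 40 measured, 20 on each side (12.5%, against 7.07% of all autosomal genes tested). They were Steap3, which was higher, and Mcm6, Rassf5, Ctse and Tmcc2, which were lower. Chromosome shares of counted genes ran from 5.50% on chromosome 11 to 9.45% on chromosome 13.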

How the data were processed

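RNA of 8 fibroblast samples, 1 array each, was measured on Affymetrix arrays. Per the labels, the deposited values are linear MAS5 signal intensity for each probe set, and the design text names Microarray Suite 5.0 and, with no role, GeneSpring. That text also names an array type other than the one whose annotation matched the probe sets. The deposited arrays had 2% trimmed means from 140 to 255, so each was scaled to 500 (factors 2.79 for stimulated WT and 2.47 for stimulated Ikbke-/- cells). The annotation gave 1 symbol to 20380 of 22626 probe sets, several to 691 and none to 1555, and the RefSeq table (GRCm38.p6) held 20351 of the 20380. The brightest probe set stood for each of 12393 genes, of which 11955 were autosomal. The number of arrays limits the precision.

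The other 3 pairs were fitted in R 4.3.3 by limma 3.58.1 (functions lmFit and eBayes, 2-sided, pair as block, 2 residual degrees of freedom, adjusted p threshold 0.05), on genes at the floor or above on some of those arrays, and the fit was tested on simulated data. Its p-values cover the spread of the Ikbke ratio between the 3 pairs, which differ in Tbk1 genotype or treatment. Technical spread is part of it and cannot be separated. Members, lists and tests were chosen with earlier results of these data known. Named genes are examples from the 10 highest and 10 lowest ratios, the 5 brightest each way with 1 array under the floor, the 8 highest and 8 lowest induced genes, bright or counted list members and a fixed set. Where a gene was named outside these, the text says so. Alternatives changed the scaling, floor, probe set rule, fold and arrays fitted.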

Additional observations from a re-analysis of the deposited data

Results flagged for a closer look

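For 19 of the genes named above, the stimulated pair without Tbk1 differed 2-fold or more in the other direction than the stimulated pair with Tbk1. The values are log2 ratios of Ikbke-null over Ikbke+/+ cells after B-DNA in Tbk1-/- cells, 1 array on each side, and the difference between the pairs was not tested. Genes higher without Ikbke in cells with Tbk1 but lower in cells without it were the cartilage genes Acan (-1.92), Cnmd (-4.27), Col2a1 (-2.32) and Sox9 (-1.001), and the immediate early genes Arc (-2.82), Dusp1 (-3.02), Fos (-1.23) and Fosb (-2.64). The same held for Msmo1 (-1.47), Ackr3 (-1.996), Gfra1 (-2.36) and Isg20 (-1.01). Genes lower without Ikbke in cells with Tbk1 but higher in cells without it were the cell cycle genes Cdk1 (1.05), Mcm2 (1.51), Mki67 (1.65) and Top2a (1.35), and Cxcl1 (1.89), Eln (1.75) and Inhbb (1.24). The ratios of Acan, Arc and Cnmd are set against the floor, under which the stimulated double mutant lay, and are therefore bounds.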

How the results depend on the processing

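No called ratio of a named gene changed sign under any alternative. With the floor at the 20th percentile 464 genes were higher and 926 lower, and at the 60th percentile 167 and 149. A 1.5-fold rule gave 675 and 872, and a 3-fold rule 82 and 89. Of genes induced in both genotypes, 9 were higher with quantile normalization, 53 by the 1.5-fold and 2 by the 3-fold rule. Lower were 2 without further scaling, 12 with the 20th percentile floor, 16 by the 1.5-fold and 3 by the 3-fold rule. Without further scaling 88 lay within 1.5-fold, of 152 induced in both. Genes induced in WT cells only that were lower numbered 11 without further scaling, 225 and 8 with the 20th and 60th percentile floors, and 39 and 5 by the 1.5-fold and 3-fold rules. Genes induced in Ikbke-/- cells only that were higher numbered 71 and 10 with these floors, and 41 and 5 by these rules. The limma fit called 8 higher and 5 lower genes with all 8 arrays, 1510 and 1055 without the mock pair of WT and Ikbke-/- cells, and 0 under its other alternatives. The fit without that mock pair takes mock and B-DNA arrays of the same Tbk1-/- genotypes as replicates. The causes were not tested. The labels give no replicate numbers to block on, and the limma fits have the matched pair as block. With the floor at the 60th percentile 9 cell cycle genes, 3 leukocyte markers and 2 chemokines for neutrophils and monocytes were lower, and 3 cartilage genes higher. Signals near the floor limit the ratios of dim genes.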
